A study of Pogona vitticeps with 24 samples.

Results

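Dental lamina (DL) epithelium was compared with the mesenchyme around it in the posterior jaw of *Sca*/+ bearded dragons (*Pogona vitticeps*), gene by gene. The comparison covers 9987 of the 11126 genes of the deposited table. Kept were genes whose mean over the 7 usable columns reached 3 log2 CPM (CPM are normalized read counts, scaled for library size). The gene just inside this limit, *MTERF4*, had a mean of 3.0005 and a difference of 1.22, and the gene just outside, *P2RX4*, a mean of 2.9996 and a difference of -2.99. The tissue was cut out by laser capture microdissection from hatchlings at the stage of the successional DL, the epithelial outgrowth from which a replacement tooth can form. *Sca*/+ posterior epithelium and *Sca*/+ posterior mesenchyme hold 3 samples each, 6 of the 24 samples of the study, and in both the animals were heterozygous for the scaleless mutation, so that 1 copy of *EDA* was mutated. Posterior means the part of the jaw where wild-type (WT) teeth are acrodont, fused to the crest of the bone. The *Sca*/+ anterior pair and the WT anterior pair of epithelium and mesenchyme, 6 samples each, are set beside it, whereas WT posterior epithelium has no usable column. The *Sca*/+ anterior and posterior tissues come from the same 3 animals. The exact dental phenotype of the mutants could not be determined beforehand, although by a rough look all of them were abnormal in the anterior dentary.

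Each gene has 1 deposited value per group, so no spread between animals can be given and no gene was tested. A gene is called higher or lower in epithelium where the 2 values differ by at least 1 log2 unit, which is a factor of 2. Every value is a whole multiple of a smallest step of its column, which was read as 1 count, as pooled reads, a mean or a single library could give, and the 95% counting interval (exact, Clopper-Pearson) given beside a difference covers counting error only, neither animals nor amplification. Counted in steps, the depth was 3264515 in posterior epithelium and 1837779 in posterior mesenchyme, with 106 and 61 steps for the median gene, and between 789353 and 1933710 in the 4 anterior columns. In tissue samples, fewer cells of a type and less RNA per cell cannot be told apart.

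Teeth form where the DL, a fold of the oral epithelium, meets mesenchyme that derives largely from the cranial neural crest. Both tissues exchange secreted signals of the FGF, Wnt, BMP and Hedgehog families, often with the ligand made on one side and the receptor on the other. The epithelium is held together by desmosomes and lies on a basement membrane, while the mesenchyme holds fibroblasts and bone-forming cells in a collagen matrix, with the vessels and nerves that run through it.

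The genes of cell adhesion and of matrix differed in the direction of the tissue labels. Of 13 desmosome and adherens junction genes kept, 11 were higher in epithelium, beside 12.1% of all genes kept, and none was lower. Their summed level was 19800 CPM in epithelium and 6841 CPM in mesenchyme. Of 29 fibrillar collagen genes and genes of collagen processing, 20 were lower in epithelium, beside 13.7% of all genes, and their sum was 18905 CPM in epithelium and 71706 CPM in mesenchyme. Each column therefore held transcripts that mark the other tissue, since the mesenchyme column had 34.5% of the adhesion level of the epithelium column, and the epithelium column 26.4% of the collagen level of the mesenchyme column. For 12 endothelial genes the epithelium column reached 4.66% of the level in mesenchyme. What part these transcripts have in any single difference was not tested. The lowest value of a usable column lies above 1 CPM, so a gene that was absent from a tissue is not in the table, and such genes were not analysed here.

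In all, 1204 genes were higher and 1371 were lower in epithelium (12.1% and 13.7% of 9987), and the 2 columns differed by less than 1 log2 unit in 74.2% of the genes. These shares, 12.1% higher and 13.7% lower, are the background for every list count of the posterior pair below. The larger differences were mostly on the side of mesenchyme. A difference of at least 2 log2 units was reached by 204 genes in the direction of epithelium and by 461 in that of mesenchyme (2.04% and 4.62%), and one of at least 3 units by 53 and 152 genes. The whole counting interval lay beyond 1 log2 unit for 382 genes higher in epithelium (3.82%) and 777 genes lower (7.78%). Between 3 and 4 log2 CPM, 21.2% of 1944 genes were higher and 18.6% lower, and between 7 and 8 log2 CPM 4.60% of 891 genes were higher and 10.1% lower. The shares were larger again at 8 log2 CPM and over, where 6.99% of 515 genes were higher and 14.0% lower.

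**Figure D1:**
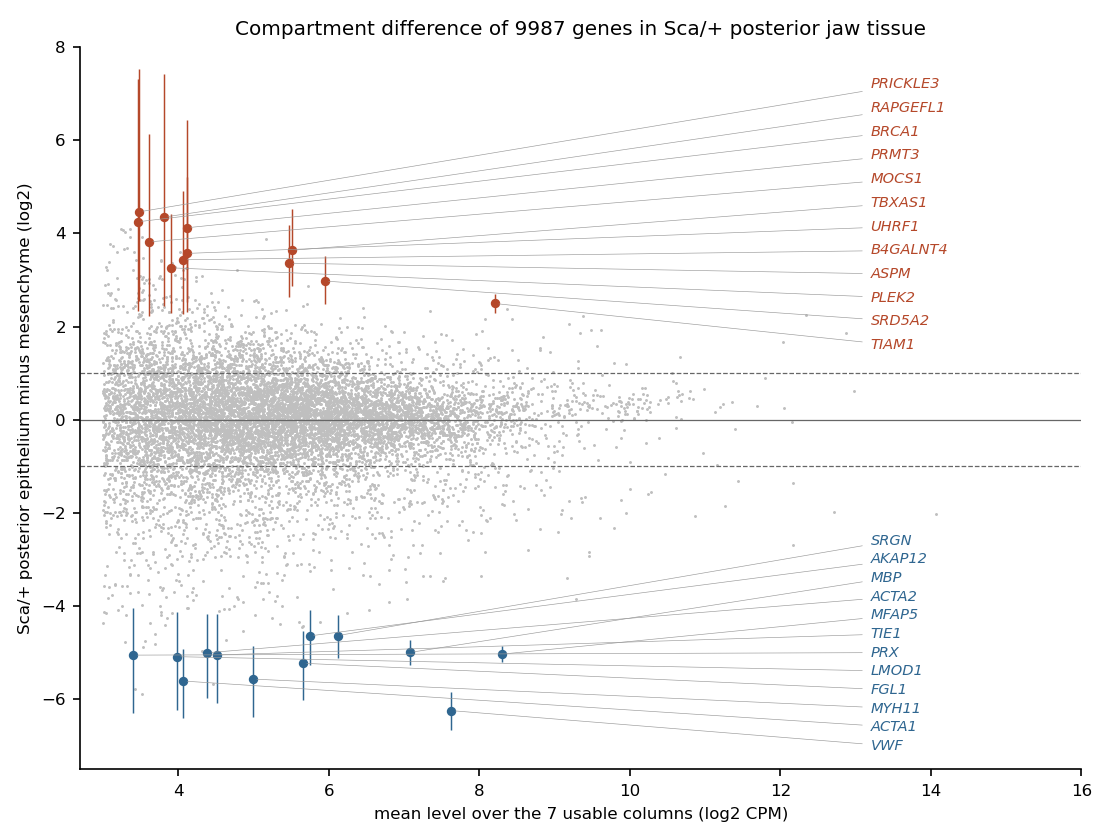
The difference of *Sca*/+ posterior epithelium from mesenchyme (vertical axis, log2) is plotted against the mean level over the 7 usable columns (horizontal axis, log2 CPM) for 9987 genes, with the 12 genes per direction farthest from 0 by their counting interval in color and dashed lines at 1 and -1. The labelled genes below reach -6.25 (*VWF*), whereas those above reach 4.46 (*PRICKLE3*) with far wider intervals, and most of them lie below 6 log2 CPM.

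The 12 genes that were farthest above 0 by the near bound of their counting interval hold several of DNA and of the cell cycle. *ASPM*, which encodes a protein of the mitotic spindle poles, had 93.0 CPM in epithelium and 9.06 CPM in mesenchyme (difference 3.36, counting interval 2.64 to 4.18). *UHRF1*, whose product passes DNA methylation on to the newly made strand, had 33.6 and 2.83 CPM in epithelium and mesenchyme (difference 3.57, 2.30 to 5.22). *BRCA1*, a gene of DNA repair, had 21.5 CPM in epithelium and 1.13 CPM in mesenchyme, the last of which stands for 2 steps (difference 4.25, 2.34 to 7.32). Enzymes of lipid and steroid metabolism were also among them. *TBXAS1*, thromboxane synthase, had 98.6 CPM in epithelium and 7.93 CPM in mesenchyme (difference 3.64, 2.87 to 4.52), but differed by 0.29 in the *Sca*/+ anterior pair and 0.69 in the WT anterior pair. *SRD5A2*, a steroid 5-alpha reductase, had 161 CPM in epithelium and 20.4 CPM in mesenchyme (difference 2.98, 2.49 to 3.51). The best measured of the 12 was *TIAM1*, an activator of the GTPase Rac, with 661 CPM in epithelium and 117 CPM in mesenchyme, which are 2124 and 207 steps. *PLEK2*, a pleckstrin that acts on the actin cytoskeleton, differed by 3.26, and the glycosyltransferase gene *B4GALNT4* by 3.43. The other 4 are *PRICKLE3*, of the Prickle family of planar polarity proteins, *PRMT3*, a methyltransferase of ribosomal proteins, *RAPGEFL1* and *MOCS1*, of molybdenum cofactor synthesis, with differences of 4.46, 4.12, 4.35 and 3.82 that rest on 2 or 3 steps in mesenchyme. The 12 genes were picked by their posterior values, and all 12 differed less in both anterior pairs. In the *Sca*/+ and the WT anterior pair *BRCA1* differed by 0.13 and 0.56, *PRICKLE3* by 0.99 and 0.63, and *UHRF1* by 2.81 and -0.40. *TIAM1* differed by 1.88 and 1.82 there.

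The 12 genes farthest below 0 are mostly genes of vessels, muscle and nerve sheath. *VWF*, the clotting factor of endothelial cells, had 16.5 CPM in epithelium and 1251 CPM in mesenchyme (difference -6.25, -6.67 to -5.85), and *TIE1*, an endothelial receptor kinase, had 3.42 and 113 CPM in epithelium and mesenchyme (-5.05, -6.07 to -4.18). Contractile genes stood beside them. *MYH11*, the myosin heavy chain of smooth muscle, had 4.98 CPM in epithelium and 236 CPM in mesenchyme (-5.57, -6.39 to -4.85), and *LMOD1*, which nucleates actin filaments in smooth muscle, 2.80 and 95.2 CPM in epithelium and mesenchyme (-5.09, -6.24 to -4.13). The muscle actins *ACTA1* and *ACTA2* differed by -5.61 and -5.00, with the limit that their coding sequences are nearly alike and the counting could split reads between them. Of the myelin genes, *MBP* had 38.9 CPM in epithelium and 1241 CPM in mesenchyme (-5.00, -5.27 to -4.74), and *PRX*, periaxin of Schwann cells, 2.49 and 82.7 CPM in epithelium and mesenchyme (-5.05, -6.29 to -4.04). *MFAP5*, a glycoprotein of microfibrils, had 85.2 CPM in epithelium and 2787 CPM in mesenchyme (-5.03, -5.21 to -4.86). The other 3, *SRGN* (serglycin, a proteoglycan of secretory granules), *AKAP12* (a scaffold of protein kinase A) and *FGL1* (a fibrinogen-like secreted protein), differed by -4.64, -4.64 and -5.23.

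Genes of cell division were higher in epithelium as a group. Of 33 genes of G2 and M phase kept, 27 were higher in epithelium and none was lower, with a median difference of 1.66, beside 0.04 for all genes kept. The counting interval lay above 0 for 32 of them and above 1 for 16, and the exception was *ECT2*, a regulator of cytokinesis (-0.10, -0.63 to 0.44). Of 32 genes of S phase, 12 were higher and none was lower, with a median of 0.84. *MKI67*, the gene of the proliferation marker Ki-67, had 378 CPM in epithelium and 101 CPM in mesenchyme (difference 1.91, 1.68 to 2.14). *TOP2A*, the topoisomerase of chromosome segregation, had 111 and 28.3 CPM in epithelium and mesenchyme (1.97, 1.55 to 2.43). The largest differences of the G2 and M phase list were those of *BIRC5* (survivin, 2.94), *NCAPD2* (a condensin subunit, 2.53), *NUSAP1* (a spindle protein, 2.48) and *CKS2* (a partner of cyclin-dependent kinases, 2.31). Those of the S phase list, after *UHRF1*, were *PRIM1* (DNA primase, 3.35), *CDC45* (of the replication helicase, 2.83) and *RRM2* (ribonucleotide reductase, 2.49). *RRM2* had 98.9 CPM in epithelium and 17.6 CPM in mesenchyme, while the mesenchyme values of *PRIM1* and *CDC45* were under 4 CPM.

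The same genes were followed in the anterior pairs. The G2 and M phase list had a median of 0.95 in the *Sca*/+ anterior pair, with 16 genes higher, beside 11.5% of all genes, and of 0.63 in the WT anterior pair, with 8 genes higher, beside 8.66% of all genes. For 23 of the 33 genes the posterior difference was above both anterior differences, which held for 33.4% of all genes. The summed level of the 33 genes was 1835 CPM in *Sca*/+ posterior epithelium, against 638 CPM in the mesenchyme beside it. It was 1925 CPM in *Sca*/+ anterior epithelium and 1007 CPM in *Sca*/+ anterior mesenchyme, and 2356 CPM in WT anterior epithelium and 1399 CPM in WT anterior mesenchyme. WT posterior mesenchyme had 659 CPM. The 3 epithelia thus lay within 1835 and 2356 CPM, with the posterior one lowest, and both posterior mesenchymes lay below both anterior ones. The S phase list had 12, 4 and 8 genes higher and medians of 0.84, 0.35 and 0.78 in the *Sca*/+ posterior, *Sca*/+ anterior and WT anterior pairs. The shares over all genes were 12.1%, 11.5% and 8.66%, so the 4 of 32 genes in the *Sca*/+ anterior pair lie near that share. In that pair 2 genes of the list were lower.

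**Figure D2:**
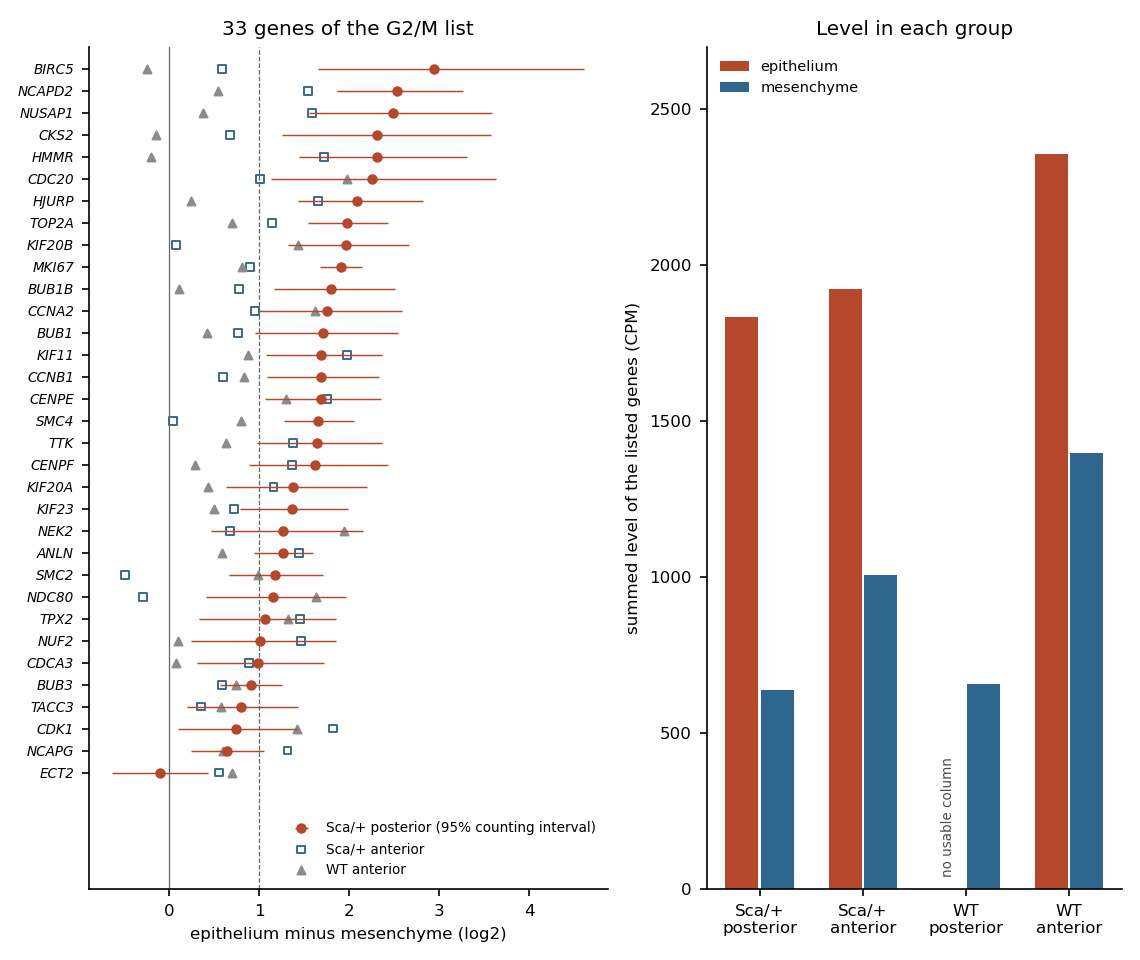
Left, the difference of epithelium from mesenchyme (log2) for the 33 genes of the G2 and M phase list in the *Sca*/+ posterior pair (circles, bars are 95% counting intervals), the *Sca*/+ anterior pair (squares) and the WT anterior pair (triangles). Right, the summed level of these genes (CPM) in each usable column, which is 1835 CPM in *Sca*/+ posterior epithelium and 638 CPM in *Sca*/+ posterior mesenchyme.

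In the adhesion list the 11 genes that were higher lay between 1.10 and 2.38. Besides *DSG2* (1633 CPM in epithelium and 351 CPM in mesenchyme) and *DSP* (9959 and 3131 CPM), desmoglein and desmoplakin of the desmosome, these were the plakophilins *PKP1*, *PKP2* and *PKP3*, with differences of 1.57, 1.43 and 1.49, and *JUP*, plakoglobin (1.26). *NECTIN4*, a junction protein, had the largest difference of the list (2.38, 1.44 to 3.49). Of 12 genes of the hemidesmosome and of epithelial laminins, which fix the epithelium to its basement membrane, 5 were higher, among them *COL17A1* (2762 CPM in epithelium and 1079 CPM in mesenchyme, 1.36) and *ITGB4* (1.21). Tight junction and polarity genes were higher in 5 of 17 cases, led by the epithelial splicing factor *ESRP2* (2.02) and the polarity gene *PARD6B* (1.33), and *TJP1* went the other way (-1.03). Of 8 keratin and cornification genes 3 were higher, namely *SFN*, *EVPL* and *KLF5* (1.84, 1.34 and 1.09), while *KRT8* differed by 0.05 and *KRT18* by -1.86. *KRT18* was at 5.00 log2 CPM in posterior epithelium and 6.87 log2 CPM in posterior mesenchyme, below the 8.09 log2 CPM of *Sca*/+ anterior epithelium and the 8.11 log2 CPM of *Sca*/+ anterior mesenchyme.

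Of 17 epithelial transcription factors 7 were higher in epithelium and *EHF* was lower. *TP63*, the master regulator of stratified epithelia, had 356 CPM in epithelium and 101 CPM in mesenchyme (1.82, 1.59 to 2.06). *GRHL2* differed by 1.78 and *FOXI3* by 1.32. *SOX2*, a marker of epithelial stem cells, had the largest difference of the list, with 23.6 CPM in epithelium and 2.27 CPM in mesenchyme (3.38, 1.97 to 5.30), where mesenchyme had 4 steps. In the anterior pairs *SOX2* was at 18.6 CPM in epithelium and 18.2 CPM in mesenchyme of *Sca*/+, and at 9.21 and 10.1 CPM in epithelium and mesenchyme of WT, so that its difference was 0.03 and -0.13 there. *EHF*, an epithelial ETS factor, had 15.6 CPM in epithelium and 49.3 CPM in mesenchyme (-1.66, -2.20 to -1.15), but was higher in epithelium in the anterior pairs (1.39 and 1.28).

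Genes of the EDA pathway could be followed in part. *EDA*, the ligand, had 10.9 CPM in epithelium and 6.23 CPM in mesenchyme, a difference of 0.81 with a counting interval that includes 0 (-0.21 to 1.93). *EDARADD*, the adaptor that the receptor recruits, had 18.7 CPM in epithelium and 2.83 CPM in mesenchyme (2.72, 1.42 to 4.39). In the *Sca*/+ and the WT anterior pair *EDARADD* differed by 1.78 and 0.17, and *EDA* by 0.13 and 2.17. The receptor *EDAR* was not analysed here. Of 17 genes of EDA and NF-kappaB signaling kept, 2 were higher in epithelium (*EDARADD* and the kinase gene *IKBKB*, 1.14) and 1 was lower (*TNFAIP3*, an inhibitor of NF-kappaB, -1.21), and *NFKBIA*, an inhibitor and target of the pathway, differed by -0.51 (-0.97 to -0.04). These counts are no larger than the shares over all genes (12.1% and 13.7%). In a list of 12 signals of dental epithelium 5 were higher (*EDARADD*, *FGF9*, *WNT7B*, *WNT4* and *BMP7*) and 2 were lower, among them *BMP2*, with a median of 0.76, beside 1.22 in the *Sca*/+ anterior and 1.03 in the WT anterior pair. With a filter at 5 log2 CPM the posterior median was 0.24 (5 genes), and the mean of the 12 genes was 0.47. *LEF1*, a transcription factor of the Wnt pathway, and *SOSTDC1*, a secreted inhibitor of BMP and Wnt, lay within 1 log2 unit (0.52 and 0.24).

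The mesenchymal transcription factors were lower in epithelium in 16 of 22 cases, with a median of -1.54. *PRRX1*, of limb and craniofacial mesenchyme, had 54.8 CPM in epithelium and 238 CPM in mesenchyme (-2.12, -2.38 to -1.86), and *EBF1* had the largest difference (-3.70, -4.48 to -3.01). It was followed by *OSR2* (-2.98), which patterns tooth rows in mice, *SIX2* (-2.37) and *SNAI1* (-2.24), a repressor of epithelial genes. *MSX2* went the other way, with 18.0 CPM in epithelium and 8.50 CPM in mesenchyme (1.09, 0.25 to 2.01). Several factors of dental mesenchyme differed less than in the *Sca*/+ anterior pair, although they were lower in epithelium in both. The posterior and the *Sca*/+ anterior difference were -1.55 and -3.51 for *PAX9*, -1.92 and -3.87 for *LHX8*, and -1.52 and -4.37 for *SP7*, a factor of bone-forming cells. In the WT anterior pair *PAX9*, *LHX8* and *SP7* differed by -1.93, -1.22 and -3.16, so that *LHX8* differed less there than in the posterior pair. The whole list had a median of -2.85 in the *Sca*/+ anterior pair and of -1.71 in the WT anterior pair. For *PAX9* the levels in *Sca*/+ were 19.0 CPM in posterior epithelium and 55.5 CPM in posterior mesenchyme, and 5.37 CPM in anterior epithelium and 61.1 CPM in anterior mesenchyme. In the *Sca*/+ anterior pair the epithelium column had 10.8% of the collagen level of the mesenchyme column. That share was 27.1% in the WT anterior pair and 26.4% in the posterior pair. What part such transcripts have in the smaller posterior differences was not tested.

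**Figure D3:**
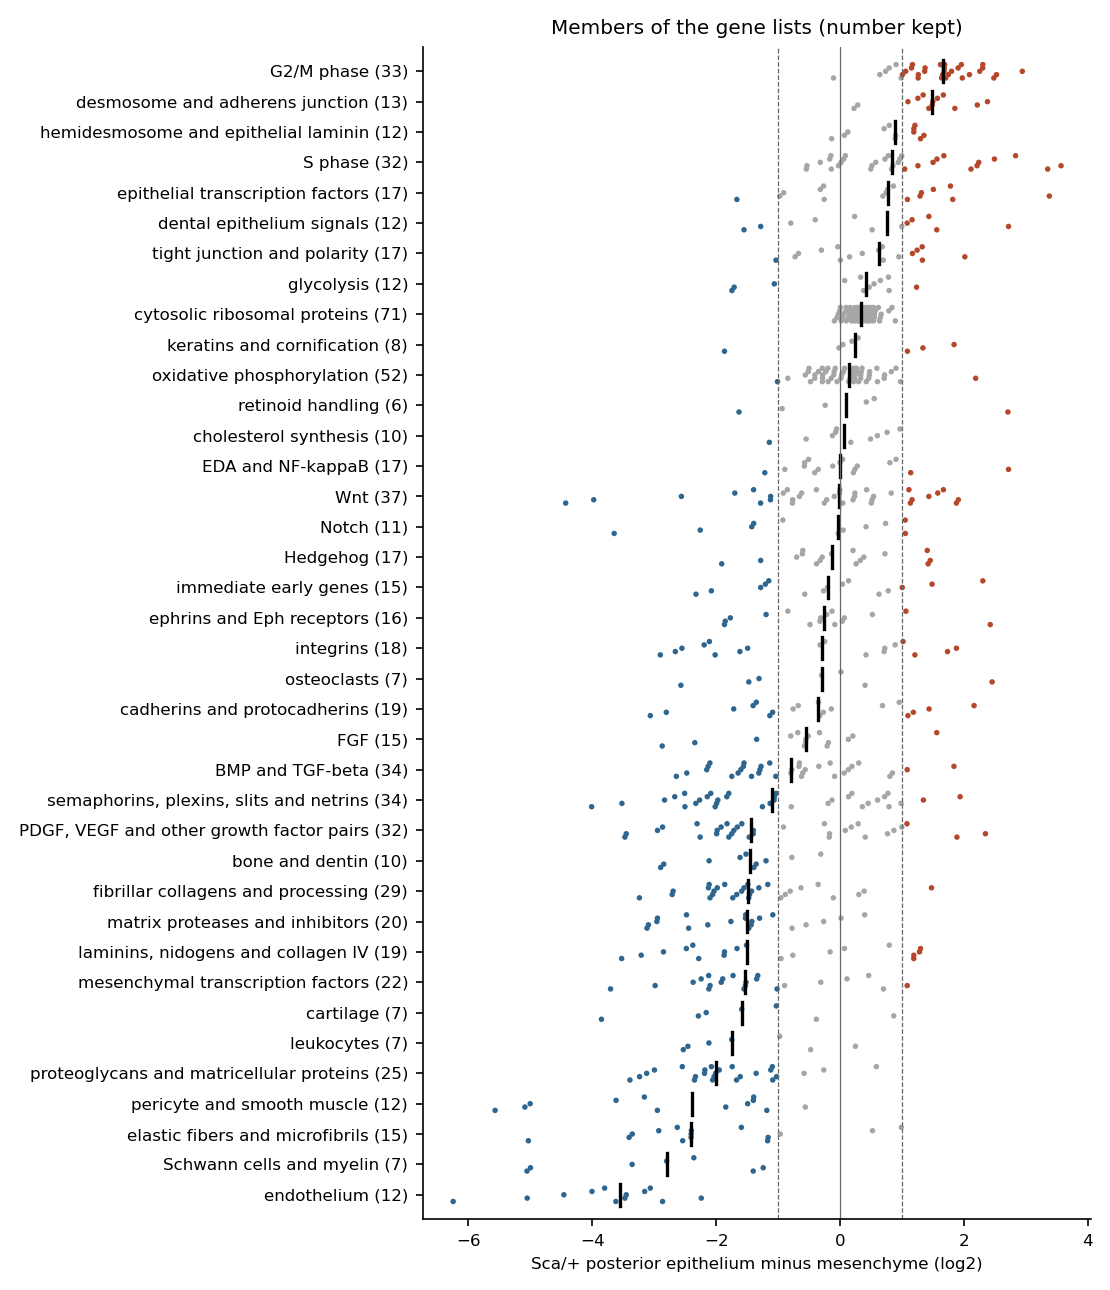
Each point is a gene of one of the lists with at least 5 members kept (number in brackets), placed at its difference of *Sca*/+ posterior epithelium from mesenchyme (horizontal axis, log2), and the bars are list medians. Points past the dashed lines at 1 and -1 are red (higher in epithelium) or blue (lower), and the medians extend from 1.66 for G2 and M phase to -3.55 for endothelium.

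Matrix genes were lower in epithelium as a group. *COL1A1*, of collagen I, the main collagen of bone and dermis, had 7786 CPM in epithelium and 31881 CPM in mesenchyme (-2.03, -2.06 to -2.01), and *COL3A1* had 1340.3 and 8671 CPM in epithelium and mesenchyme (-2.69, -2.74 to -2.64). Enzymes that cross-link or process collagen were lower with them, among them *LOXL1* (-3.24), *ADAMTS2* (-2.71) and *LOXL2* (-2.12). *COL14A1*, a collagen that binds to fibril surfaces, went the other way, with 328 CPM in epithelium and 118 CPM in mesenchyme (1.48, 1.26 to 1.70), as in the *Sca*/+ and the WT anterior pair (2.09 and 1.61). The elastic fiber list was lower in 12 of 15 cases, with a median of -2.40, and its largest differences after *MFAP5* were those of *MFAP4* (-3.40), *LTBP2* (-3.35) and *FBN1* (-2.93), the gene of fibrillin. Of 25 proteoglycan and matricellular genes 22 were lower and none was higher, with a median of -2.01. They include *DCN*, decorin (1098 CPM in epithelium and 4568 CPM in mesenchyme, -2.06), *BGN*, biglycan (-2.35), and *MATN2*, matrilin (-2.55). *TNC*, tenascin C, differed by -3.24 (-3.69 to -2.80) at the posterior position and by -0.60 (-1.24 to 0.06) at the anterior position of *Sca*/+, whereas *POSTN*, periostin of the periodontal tissue, differed by -3.39 (-3.53 to -3.25) and -5.47 (-5.74 to -5.21). In the WT anterior pair *TNC* and *POSTN* differed by -1.73 and -2.96, both less than at the posterior position. Matrix proteases and their inhibitors were lower in 15 of 20 cases, led by *ADAMTS1* (-3.12), *HTRA3* (-3.09), *ADAMTS5* (-2.96) and *ADAMTS12* (-2.95).

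Genes of mineralized tissue followed the matrix genes. Of 10 bone and dentin genes 8 were lower in epithelium and none was higher. *BGLAP*, osteocalcin, had 149 CPM in epithelium and 1106 CPM in mesenchyme (-2.90, -3.04 to -2.75), *IBSP*, bone sialoprotein, differed by -2.85 and *SPP1*, osteopontin, by -2.11. Cartilage genes were lower in 5 of 7 cases, and *COL11A1*, of a minor fibrillar collagen, had 12.1 CPM in epithelium and 175 CPM in mesenchyme (-3.85, -4.37 to -3.37), a larger difference than in the *Sca*/+ anterior (-1.64) and the WT anterior pair (-1.78). *SOX9*, of the same list, went the other way within 1 log2 unit (0.87, 0.59 to 1.15), with 0.99 in the *Sca*/+ anterior and 1.59 in the WT anterior pair. Of the enamel genes listed 1 was kept, *FAM20A*, and it was lower in epithelium (-1.69, -1.97 to -1.41), as in both anterior pairs (-2.18 and -1.36).

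Listed genes of vessels, nerve sheath and blood were lower in epithelium without exception among those past 1 log2 unit. All 12 endothelial genes kept were lower in epithelium, with a median of -3.55, among them *MMRN1* (-4.46), *KDR* (-3.47) and *STAB1* (-3.80). Of 12 genes of pericytes and smooth muscle 11 were lower (median -2.40, or -1.44 for the 4 genes kept with a filter at 5 log2 CPM), and of 7 Schwann cell genes 7 (median -2.80), with *L1CAM* at -3.36 and *GFRA3* at -2.80. Leukocyte genes were lower in 4 of 7 cases (median -1.75, or -0.92 with log2(CPM + 5)), and erythroid genes in 2 of 3. Among the leukocyte genes *LSP1* differed by -2.12 (-2.39 to -1.85). *PTPRC* (CD45) differed by -2.46 (-4.54 to -0.73), with only 0.31 log2 CPM in epithelium. Of 2 skeletal muscle genes *ACTA1* was lower and *TPM2* differed by -0.37. Osteoclast genes were divided, since *ACP5*, *CTSK* and *CLCN7* were lower (-2.57, -1.47 and -1.31) and *TNFRSF11A*, the receptor RANK, was higher (2.46, 0.77 to 4.81). None of 15 neuron genes listed was kept, and of the pigment cell genes only *GPNMB* was, which differed by 0.20 (-0.94 to 1.46). For *MYH11* and *LMOD1* the posterior difference was larger than both anterior differences. It was -5.57 for *MYH11*, against -2.57 in the *Sca*/+ anterior and -2.23 in the WT anterior pair, and -5.09 for *LMOD1*, against -2.87 and -0.94 there. The summed level of the 7 Schwann cell genes was 330 CPM in posterior epithelium and 2461 CPM in posterior mesenchyme, and 212 CPM in *Sca*/+ anterior epithelium and 997 CPM in *Sca*/+ anterior mesenchyme.

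Ligands and receptors of the growth factor families lay on the same side in some pairs and on opposite sides in others. In mice *FGF10*, *FGF7* and *HGF* are growth factors of mesenchyme that act on epithelia. Of 15 genes of the FGF list 1 was higher in epithelium and 3 were lower, near the 12.1% and 13.7% of all genes. *FGF10* had 19.3 CPM in epithelium and 141 CPM in mesenchyme (-2.87, -3.30 to -2.46), *FGF7* differed by -2.34 and *HGF* by -2.86. *MET*, the receptor of HGF, was higher in epithelium, with 502 CPM against 237 CPM in mesenchyme (1.08, 0.93 to 1.24), while *FGFR2*, whose epithelial splice form binds FGF7 and FGF10, differed by -0.33 (-0.50 to -0.16). *FGF9*, an epithelial ligand in mouse teeth, had 13.4 CPM in epithelium and 4.53 CPM in mesenchyme, and *FGFR3* was lower in epithelium (-1.35). In the PDGF family *PDGFC* was the ligand higher in epithelium by more than 1 log2 unit, with 83.7 CPM in epithelium and 16.4 CPM in mesenchyme (2.35, 1.79 to 2.95). Its receptor *PDGFRA* had 198 and 748 CPM in epithelium and mesenchyme (-1.92, -2.06 to -1.78). The ligand *PDGFA* lay above 0 within 1 log2 unit (0.77, 0.37 to 1.18). *PDGFD*, *PDGFB* and their receptor *PDGFRB* were all lower in epithelium (-1.98, -1.59 and -1.40), and so were *VEGFC* and the vascular receptors *KDR* and *FLT1* (-2.31, -3.47 and -3.45). *CXCL14*, a chemokine of epithelia, differed by 1.89, and *IGF2*, the fetal insulin-like growth factor, by -2.95. Of 32 genes of these growth factor pairs 3 were higher and 18 were lower, beside 12.1% and 13.7% of all genes.

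The Wnt genes were divided evenly, with 8 of 37 higher and 8 lower in epithelium, beside 12.1% and 13.7% of all genes. *WNT7B* and *WNT4*, ligands of dental and oral epithelium, had 62.8 and 47.0 CPM in epithelium and 23.2 and 21.0 CPM in mesenchyme (differences 1.44 and 1.16), whereas the ligand *WNT2B* was lower (-1.39). The receptors differed by member, since *FZD3* was higher (1.88, 1.42 to 2.37) and *FZD1* and *FZD2* were lower (-2.56 and -1.28). The R-spondin receptors *LGR6* and *LGR5* were on opposite sides. *LGR6* had 154 CPM in epithelium and 51.5 CPM in mesenchyme (1.58, 1.25 to 1.92), and *LGR5*, a stem cell marker of mouse intestine and skin, had 12.1 CPM in epithelium and 261 CPM in mesenchyme (-4.43, -4.94 to -3.96). *RNF43*, which removes Wnt receptors from the membrane, was higher (1.67), and the secreted inhibitors *SFRP4*, *FRZB* and *WIF1* were lower (-3.98, -1.70 and -1.12). The nuclear factor *TCF7* differed by 1.91 (0.76 to 3.30).

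Of 34 BMP and TGF-beta genes 2 were higher and 16 were lower in epithelium, beside 12.1% and 13.7% of all genes, with a median of -0.79. The epithelial members were *BMP7* (70.9 CPM in epithelium and 33.4 CPM in mesenchyme, 1.09) and the receptor *ACVR1B* (1.84). Among the ligands *BMP2*, *BMP5*, *BMP6*, *TGFB2* and *TGFB3* were lower (-1.55, -1.27, -1.29, -1.64 and -2.47), and so was the antagonist *CHRDL1* (-2.10). *BMP2*, an early signal of dental epithelium in mice, had 8.71 CPM in epithelium and 25.5 CPM in mesenchyme, with a difference of 0.20 in the *Sca*/+ anterior pair and of 0.75 in the WT anterior pair. In the Hedgehog list of 17 genes 3 were higher and 2 were lower, near the shares over all genes (12.1% and 13.7%). The higher ones were the co-factors of ligand release *SCUBE2* and *SCUBE3* and the acyltransferase *HHAT* (1.46, 1.41 and 1.42). *SCUBE1* was among the lower ones (-1.91), and *GLI1*, a target gene of the pathway, differed by -0.32 (-1.11 to 0.49). Of 11 Notch genes 2 were higher and 4 were lower, beside the same 12.1% and 13.7%. The glycosyltransferase gene *RFNG* and *DLK2*, of the Delta-like family, were higher (1.06 and 1.05), and *DLL4* and *NOTCH3*, of vessels and their mural cells, were lower (-3.65 and -1.39).

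**Figure D4:**
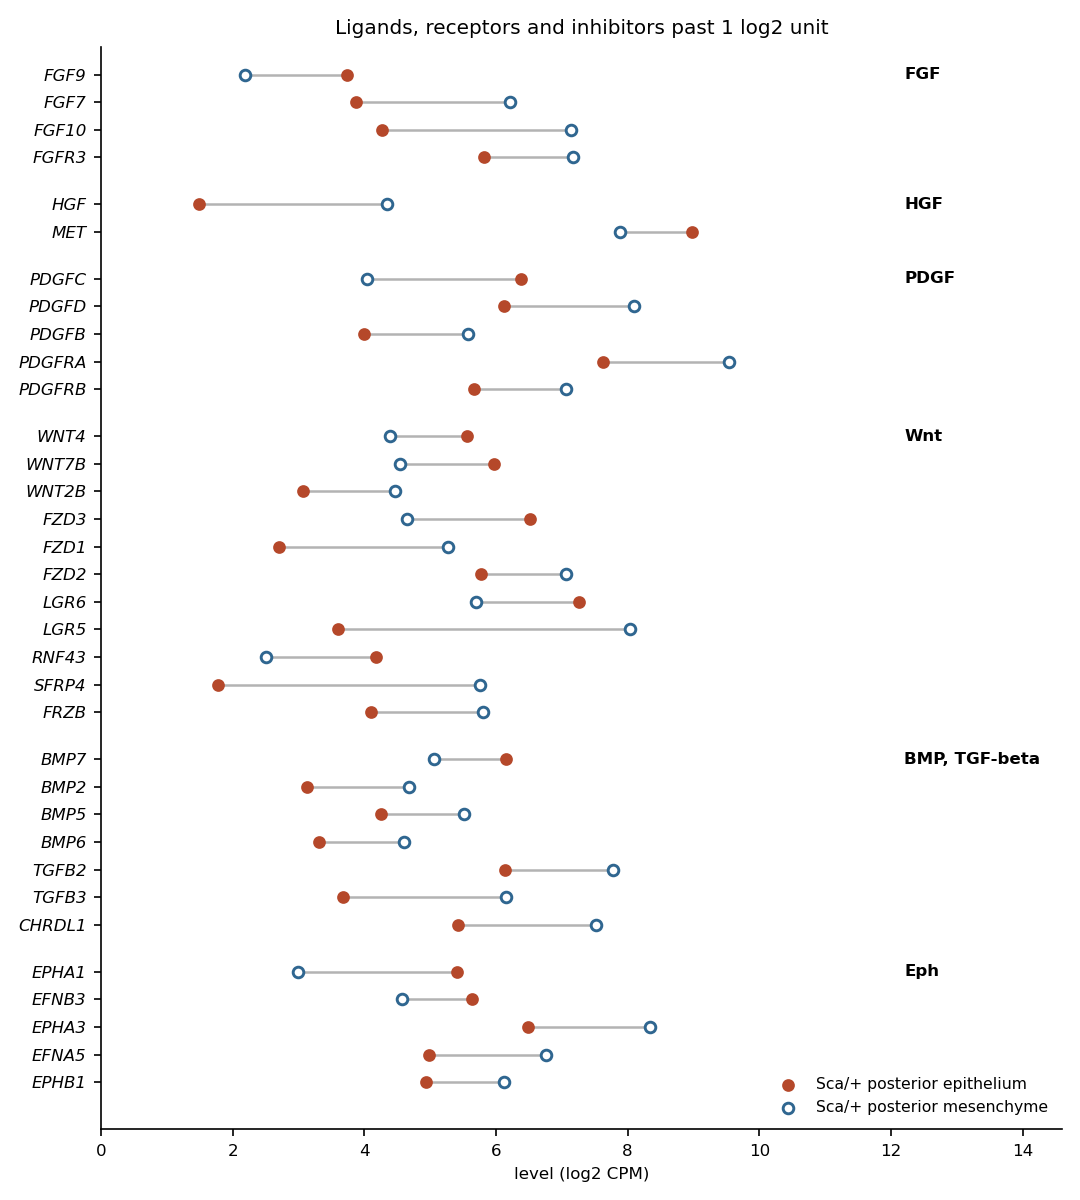
Levels (log2 CPM) of ligands, receptors and inhibitors that differed by at least 1 log2 unit, in *Sca*/+ posterior epithelium (filled circles) and *Sca*/+ posterior mesenchyme (open circles), 1 deposited value each. *FGF10*, *HGF* and *LGR5* lie to the left in epithelium (differences -2.87, -2.86 and -4.43), and *MET*, *PDGFC* and *LGR6* to the right (1.08, 2.35 and 1.58).

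Guidance and adhesion receptors were mostly lower in epithelium where they differed. Of 34 semaphorins, plexins, slits and netrins with their receptors, 20 were lower in epithelium and 2 were higher. The lower ones were led by *SEMA7A* (-4.01, -5.38 to -2.88), *SEMA3B* (-3.52, -4.65 to -2.55) and *ROBO2* (-2.83, -3.42 to -2.28). The higher ones were *SEMA3E* (1.94, 0.43 to 3.91) and *PLXNB1* (1.35, 1.06 to 1.65). *SEMA7A* and *SEMA3B* were at 1.12 and 1.64 log2 CPM in epithelium, and *SEMA3E* at 1.18 log2 CPM in mesenchyme. Of 16 genes of the Eph family 2 were higher and 4 were lower, the first being close to the 12.1% of all genes and the second above their 13.7%. *EPHA1* had 42.6 CPM in epithelium and 7.93 CPM in mesenchyme (2.43, 1.63 to 3.33), and *EPHA3* and its ligand *EFNA5* were lower (-1.85 and -1.77). Of 18 integrin subunits 4 were higher and 8 were lower, with a median of -0.28, or 0.71 for the 11 kept with a filter at 5 log2 CPM. The epithelial subunits *ITGB6* (1.88), *ITGA2* (1.74) and *ITGB4* were higher, and *ITGA9* (-2.90), *ITGA1* (-2.66), *ITGA5* (-2.55) and *ITGA11* (-2.19) were lower, the last being a collagen receptor of fibroblasts. *ITGB3* was higher at the posterior position (1.02, 0.42 to 1.66) but lower in the *Sca*/+ anterior pair (-1.46, -2.18 to -0.73). Of 19 genes of basement membranes 4 were higher, among them *COL7A1* of the anchoring fibrils (1.28), and 10 were lower, among them *COL4A2* (-3.52), *COL4A1* (-3.21) and *LAMA2* (-2.85). Of 19 cadherins and protocadherins 4 were higher and 7 were lower, and *FAT2* had 856 CPM in epithelium and 191 CPM in mesenchyme (2.16), and *FAT4* 158 and 1106 CPM in epithelium and mesenchyme (-2.80). *CDH11*, of mesenchymal cells, was lower (-1.40), and *CDH2*, N-cadherin, was higher in epithelium (1.19, 0.97 to 1.41), as in both anterior pairs (1.71 and 1.30).

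None of 71 cytosolic ribosomal protein genes was past 1 log2 unit, with a median of 0.33 and 67 of them above 0. Of 52 oxidative phosphorylation genes 1 was higher and 1 was lower (*NDUFB3*, 2.19, and *SDHB*, -1.01), and of 10 cholesterol synthesis genes none was higher and 1 was lower. These counts lie below the shares over all genes (12.1% higher and 13.7% lower). Of 12 glycolysis genes 1 was higher and 3 were lower, beside the same shares, among the lower ones *ALDOA* (-1.71) and *PFKP* (-1.74). Yet 9 glycolysis genes lay above 0, with a median of 0.43 and a mean of 0.06. Their sum was 5730 CPM in epithelium and 3835 CPM in mesenchyme. Of 15 immediate early genes 3 were higher and 5 were lower, beside the same shares, and *JUND* differed by 2.31 and *DUSP1* by -2.32. Of 6 genes of retinoid handling 1 was higher and 1 was lower, which is near the shares over all genes. *DHRS3*, an enzyme that reduces retinal, had 52.0 CPM in epithelium and 7.93 CPM in mesenchyme (2.71, 1.92 to 3.61), and *ALDH1A3*, which makes retinoic acid, was lower in epithelium (-1.63, -2.23 to -1.05).

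The calls of the posterior pair were then set beside those of the anterior pairs, which share no column with it. Of 1371 genes lower in posterior epithelium, 816 were also lower in the *Sca*/+ anterior pair, which is 59.5% of the posterior and 57.1% of the anterior list (14.3% of all genes), 748 (54.6% of the posterior and 59.1% of the WT list, which holds 12.7% of all genes) were also lower in the WT anterior pair, and 606 were lower in all 3 pairs. Of 1204 genes higher in posterior epithelium, 356 were also higher in the *Sca*/+ anterior pair, 29.6% of the posterior and 31.0% of the anterior list (11.5% of all genes), 315 (26.2% of the posterior and 36.4% of the WT list, which holds 8.66% of all genes) were also higher in the WT anterior pair, and 155 were higher in all 3 pairs. Called in the opposite direction in the *Sca*/+ anterior pair were 53 genes higher at the posterior position and 65 genes lower there. Of all genes, 14.3% were lower and 11.5% were higher in that pair, larger shares than these counts are of the posterior lists. Across 9987 genes the posterior and the *Sca*/+ anterior difference had a Pearson's r of 0.56 and a Spearman's rho of 0.46, as a description of genes, which are not independent replicates, in tissues of the same 3 animals. The difference between these shares was not tested, and the *Sca*/+ anterior mesenchyme column has the lowest depth of all, 789353 steps.

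Genes were then ranked by how far apart their counting intervals lay at the posterior and anterior positions of *Sca*/+. The first 6 per direction include genes that were on one side posteriorly and on the other side anteriorly in *Sca*/+. *RELN*, reelin, a secreted matrix protein known from neuronal migration, had 9.33 CPM in posterior epithelium and 135 CPM in posterior mesenchyme (-3.86, -4.46 to -3.31). In the anterior tissue of *Sca*/+ it had 605 CPM in epithelium and 130.1 CPM in mesenchyme (2.22, 1.92 to 2.53), so that the mesenchymes were nearly alike and the epithelia were not. *SLC12A2*, the sodium, potassium and chloride cotransporter, was the reverse case, with 127 CPM in posterior epithelium and 1298 CPM in posterior mesenchyme (-3.36), and 98.2 CPM in anterior epithelium and 96.3 CPM in anterior mesenchyme (0.03). The posterior and anterior differences were -3.58 and 1.94 for *IL22RA1*, a receptor chain of interleukin 22, -3.06 and 1.00 for *AQP3*, a water channel, -1.73 and 3.32 for *SLC22A23*, and -0.30 and 3.21 for *FBLN7*, a fibulin. On the other side were *IMPDH1*, of guanine nucleotide synthesis (4.09 and -1.28), *NSUN4*, an RNA methyltransferase of mitochondria (2.47 and -2.04), and *AP5M1*, an adaptor subunit (2.80 and -1.35). Several of these differences rest on low levels. The 4.09 of *IMPDH1* (2.18 to 7.17) rests on 2 steps in *Sca*/+ posterior mesenchyme, whereas WT posterior mesenchyme was at 3.89 log2 CPM. *AP5M1* was at 1.77 log2 CPM in posterior mesenchyme. *IL22RA1* and *AQP3* were at 0.64 and 1.12 log2 CPM in posterior epithelium, and *SLC22A23* at 1.38 log2 CPM in anterior mesenchyme. *NSUN4* was at 2.35 log2 CPM in posterior mesenchyme and 2.42 log2 CPM in anterior epithelium of *Sca*/+. *GPNMB*, a glycoprotein of pigment cells and osteoclasts, had 6.53 CPM in posterior epithelium and 5.67 CPM in posterior mesenchyme, and 5.86 CPM in anterior epithelium and 114 CPM in anterior mesenchyme. *CP*, ceruloplasmin, and *SPOCK3*, a matrix proteoglycan, were lower in epithelium at both positions, by less at the posterior one (-1.38 against -4.37, and -1.13 against -3.79). The WT anterior pair had no part in this choice. There *RELN*, *SLC12A2*, *IL22RA1*, *FBLN7*, *SLC22A23* and *AQP3* differed by 1.38, 0.11, 0.16, 1.79, 0.97 and -0.26. *IMPDH1*, *GPNMB*, *NSUN4*, *CP*, *SPOCK3* and *AP5M1* differed by -1.71, -2.50, 1.46, -2.22, -1.85 and -0.35. Of the genes whose sign changed between the *Sca*/+ positions, *NSUN4* and *AQP3* had the posterior sign in WT.

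**Figure D5:**
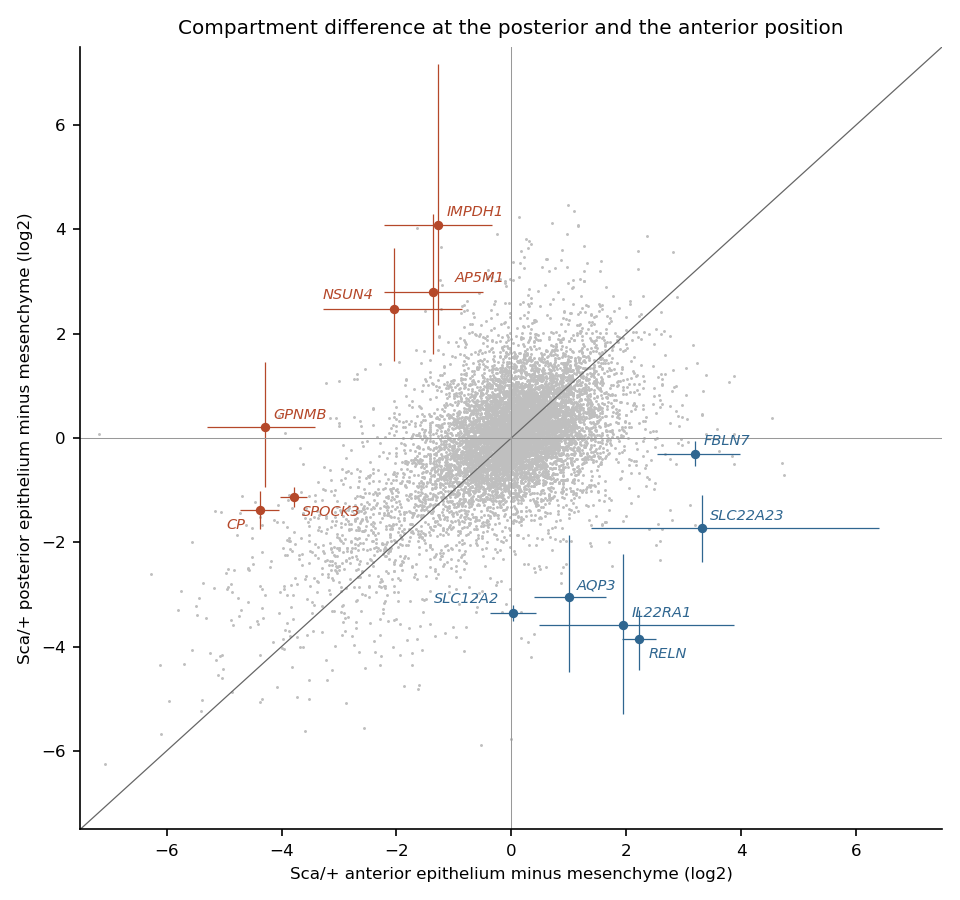
The difference of epithelium from mesenchyme in *Sca*/+ posterior tissue (vertical axis, log2) is plotted against that in *Sca*/+ anterior tissue (horizontal axis, log2) for 9987 genes, with the 6 genes per direction whose counting intervals (bars, 95%) lie farthest apart in color and the line of equal differences. *RELN* lies at -3.86 and 2.22, and *IMPDH1* at 4.09 and -1.28, on opposite sides of 0 on the axes. The 4.09 of *IMPDH1* rests on 2 steps in posterior mesenchyme.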

How the data were processed

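Gene expression was measured by RNA-seq of laser-captured tissue in 24 samples, 8 groups of 3. Per the study's methods the authors prepared libraries without ribosomal RNA, trimmed the reads (Trimmomatic), aligned and counted them (STAR) and normalized the counts with edgeR, with versions not given in the sources used here. The deposited values are log2 CPM (normalized counts), 1 value per gene and group, labelled as a mean. Summed over the genes of the table, usable columns ranged from 861122 CPM (WT anterior epithelium) to 1047963 CPM (WT posterior mesenchyme). The larger sum is more than scaling to the library total alone can give. Since all values of a column are multiples of 1 step, a column may hold a mean, pooled reads or a single library, and which of these could not be settled. The column of WT posterior epithelium holds a constant increment from row to row in 11121 of 11126 rows and was not used. Columns of the authors' own comparisons were not used.

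Differences are epithelium minus mesenchyme. A smallest step divides all CPM values of a usable column (100%, tolerance 0.0065 CPM). Steps were taken as counts for exact intervals (95%, SciPy 1.17.1, Python 3.11.15), although a step of a mean of 3 libraries need not be a single read. Intervals cover counting error only, and PCR copies are not independent molecules. With 1 value per group no model was fitted and no gene was tested. A gene counted as higher or lower at 1 log2 unit.

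The 43 gene lists and the comparison itself were chosen with earlier results of these data known. Named were the 12 genes per direction with the interval farthest from 0, in each list up to 4 members per direction and, for signaling, the ligands and receptors past 1 log2 unit, members against their list's direction, the 6 genes per direction whose intervals lay farthest apart between positions, and *EDA*, *EDAR* and *EDARADD*. Further list members are named outside this rule, some within 1 log2 unit and others past it, such as *MKI67*, *TOP2A*, *PKP2* and *COL1A1*. Some genes that the rule selects are not reported here. Alternatives were other filters, pseudocounts, scalings and limits. The scripts were tested on simulated data. Gene names were matched to RefSeq (PviZW2.1) for 8970 of 9987 genes. A further 13 bear names that look like dates and were left unnamed.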

Additional observations from a re-analysis of the deposited data

How the results depend on the processing

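No list median past 1 log2 unit changed direction under the other filters, pseudocounts, scalings and the mean. Some medians within 1 log2 unit changed sign. With the filter at 5 log2 CPM, integrins went from -0.28 to 0.71 and Hedgehog genes from -0.14 to 0.26 (11 genes each). The growth factor pairs had a median of -1.43 and a mean of -0.95. Gene differences were recomputed with other pseudocounts and scalings, which cannot turn the direction of differences of this size. The counts of genes did move. With a filter at 5 log2 CPM, 428 genes were higher and 626 lower in epithelium among 5589 kept, with log2(CPM + 5) 792 were higher and 1066 lower, and with a limit of 0.58 log2 units 2337 and 2296. A limit of 2 log2 units left 204 and 461 genes, and a counting interval wholly beyond 1 log2 unit 382 and 777. The share of higher among called genes, 46.8% at first, was 40.6% with the filter at 5, 30.7% at the limit of 2 and 32.96% with the interval. No filter, log2(CPM + 1), centering on the median, a TMM factor and a minimum of 20 steps gave between 1106 and 1509 genes higher, and between 1305 and 1596 lower, each within 1.5 times the first count. Of the list medians, elastic fibers were at -2.03 when averaged by the mean, proteoglycans at -1.73 and endothelium at -2.93 with log2(CPM + 5), and pericytes and smooth muscle at -1.44 (4 genes) and Schwann cells at -2.36 (5 genes) with the filter at 5. Over the gene values 39 of 1504 moved by more than their counting interval, 35 of them with log2(CPM + 5).

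No paired analysis was possible because the deposited columns carry 1 value per group and no replicate number, and leaving out a replicate was not run for the same reason. The spread between the 3 animals is therefore unknown, and differences of low genes rest on few counts, in particular where mesenchyme had 2 or 3 steps. The anterior columns were less deep than the posterior epithelium column.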

Other observations

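Some genes that take part in ion transport or secretion were at a higher level in both posterior mesenchymes than in the other columns. They were picked for these values, with no list or share behind them. *SLC12A2* was at 10.34 log2 CPM in the *Sca*/+ and 10.41 in the WT mesenchyme of the posterior jaw, against 6.98 in *Sca*/+ posterior epithelium and between 6.59 and 7.66 in the 4 anterior columns. *ANO1*, a chloride channel of secretory epithelia, was at 6.94 and 6.92 log2 CPM in these 2 mesenchymes, and between 3.60 and 5.73 in the other 5 columns. *ATP1B1*, a subunit of the sodium pump, was at 7.97 and 8.29, and between 3.77 and 6.31 in the others. *QSOX1*, which forms disulfides in secreted proteins, was at 8.62 and 9.07, and between 6.36 and 6.95 in the others. *HID1*, of secretory granules, was at 6.45 and 5.98, and between 1.64 and 4.29 in the others. *GIF*, gastric intrinsic factor, was at 7.65 and 6.98, and between 0.56 and 4.48 in the others. Other genes of this kind did not have the pattern. *WNK4*, a kinase that regulates salt transport, was at 5.11 and 4.21 log2 CPM, and at 4.80, 4.63 and 4.63 in *Sca*/+ anterior epithelium, *Sca*/+ anterior mesenchyme and WT anterior epithelium. *AQP3* was at 4.18 and 3.70 log2 CPM in these mesenchymes, and was highest in WT anterior epithelium (7.64) and WT anterior mesenchyme (7.90). *XBP1* lay between 4.39 and 4.76 log2 CPM in all 4 mesenchymes.

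Where the mean level reached 8 log2 CPM, 7 genes were higher in epithelium by at least 2 log2 units and 25 were lower, a selection made after the values were seen. Besides *TIAM1*, *DSG2* and *FAT2*, the genes with a symbol that were higher were *SERPINB5* (maspin, of stratified epithelia), with 952 CPM in epithelium and 212 CPM in mesenchyme (2.16, 2.01 to 2.32), and *CRYBG1*, with 776 and 148 CPM in epithelium and mesenchyme (2.39, 2.20 to 2.58). Those that were lower include *FN1*, fibronectin (-2.33, -2.45 to -2.22), *ABI3BP*, a matrix protein (-2.84, -2.93 to -2.75), *SPTBN1*, a spectrin (-2.41, -2.53 to -2.30), and *PDK4*, a regulator of glucose oxidation (-2.17, -2.31 to -2.02).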
